A study of Mus musculus with 6 samples.

Results

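The genes described here are the cyclic nucleotide signalling machinery: the enzymes that make cyclic AMP (cAMP) and cyclic GMP (cGMP), the phosphodiesterases (PDEs) that degrade them, and the kinases, anchoring proteins and exchange factors that carry the signal on. They were chosen by gene symbol, with no filter on level or on difference between genotypes, and 57 of the 18197 symbols in the deposited count table met the rule. The rule was set with earlier results of these data known. They comprised 9 adenylyl cyclases, 4 guanylyl cyclases, 21 symbols beginning with Pde, 2 catalytic and 4 regulatory subunits of cAMP-dependent protein kinase (PKA), 2 cGMP-dependent kinases (PKG), 12 A-kinase anchoring proteins (AKAPs), the stimulatory G protein subunit gene Gnas, and the exchange factors Rapgef3 and Rapgef4.

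The series profiled cancer-associated fibroblasts, sorted by flow cytometry from mammary tumours of C57BL/6 mice carrying the polyoma middle T oncogene (PyMT). All 6 libraries shared that tumour model and were made from tumours taken at 16 to 20 weeks, 3 labelled WT and 3 labelled mPGES-1 KO. Microsomal prostaglandin E synthase-1 (mPGES-1, gene Ptges) is an enzyme that makes prostaglandin E2 (PGE2), and the title of the series asks which expression signature in these fibroblasts depends on PGE2. The labels name neither the promoter of the oncogene, nor the cells that lack mPGES-1, nor whether each library came from a separate animal or pool, so the p-values here reflect how far these libraries scatter, which can be technical scatter alone.

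PGE2 acts on G protein-coupled receptors, of which EP2 and EP4 couple to Gs. Gs activates adenylyl cyclases, and the cAMP they make releases the catalytic subunits of PKA from its regulatory subunits, opens the EPAC exchange factors towards Rap proteins, and through PKA phosphorylates the transcription factor CREB, which binds the cAMP response element (CRE). In parallel, nitric oxide activates a soluble guanylyl cyclase made of an alpha and a beta chain, and the cGMP it makes activates PKG, a brake on contraction that is prominent in smooth muscle and pericytes.

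Upstream sequences are shown for 3 of the 4 genes whose transcripts passed the test, to set their promoters side by side, and for Prkar1a, in which a full CRE was found. They come from RefSeq starts (GRCm38.p6) and are trimmed to bases outside every GENCODE exon, which left 39 bases for Pde5a, too few to show. Each runs 5' to 3' on the gene's strand, and capitals mark a full CRE (TGACGTCA) or a short CRE (TGACG or its reverse complement CGTCA).
Pde4b, chr4:102421305-102421517, plus strand: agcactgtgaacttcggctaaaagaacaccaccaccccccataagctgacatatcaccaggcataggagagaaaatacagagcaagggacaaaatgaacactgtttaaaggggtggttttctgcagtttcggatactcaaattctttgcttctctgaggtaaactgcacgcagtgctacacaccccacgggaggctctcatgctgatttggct
Gucy1b3, chr3:82074712-82074961, minus strand: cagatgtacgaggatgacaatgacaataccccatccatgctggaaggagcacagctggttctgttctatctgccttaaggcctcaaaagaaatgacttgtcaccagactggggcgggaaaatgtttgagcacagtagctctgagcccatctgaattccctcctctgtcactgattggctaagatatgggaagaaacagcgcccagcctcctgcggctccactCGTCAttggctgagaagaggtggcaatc
Gucy1a3, chr3:82145790-82145900, minus strand: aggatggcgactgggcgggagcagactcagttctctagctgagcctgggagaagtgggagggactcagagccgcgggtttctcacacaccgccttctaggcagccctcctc
Prkar1a, chr11:109650699-109650920, plus strand: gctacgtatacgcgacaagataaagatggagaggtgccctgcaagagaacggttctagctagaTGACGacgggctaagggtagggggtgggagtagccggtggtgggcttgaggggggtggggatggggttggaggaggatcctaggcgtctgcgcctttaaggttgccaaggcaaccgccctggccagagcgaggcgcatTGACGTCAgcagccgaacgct

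In Gucy1b3 a short CRE began at position -28, where -1 is the last base before the RefSeq start. Gucy1a3, its neighbour on the same strand of chromosome 3, had no short or full CRE in the printed bases, which belong to 1 of its 2 listed RefSeq starts. The 2 genes are separated by 17737 bases that hold 0 other genes of the table. In Pde4b a short CRE began at position -34, just past the printed bases, which end where an annotated exon begins, and it was found at 1 of the 4 RefSeq starts listed for the gene. Of the 6 RefSeq starts listed for Prkar1a, the one printed had the full CRE from position -49 and a further short CRE from position -187. From another start the same full CRE lies downstream, at position 39, and the remaining starts had no full CRE.

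Windows from 250 bases before to 50 bases after a start were listed for 50 of the 57 genes, 98 windows in all. On both strands, a short CRE (also counted inside a full one) was found in 24.5% of these windows against 20.8% of all 32851 windows in the table, and a full CRE in 2.04% against 1.79%. The 2 member windows with a full CRE overlap and hold the same site in Prkar1a, so 1 member had a full CRE. The CArG box, bound by serum response factor, was found in 0 of the 98 windows and in 1.63% of all windows. These matches describe the letters of the windows and were not measured for binding.

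Library totals ran from 23013498 to 43648450 counts, and 3 counts correspond to 0.0687 to 0.13 CPM (counts scaled to the library total), so levels near those values rest on a few reads. Ptges itself, at 31.9, 19.2 and 27.9 CPM labelled WT, was higher labelled mPGES-1 KO, at 186, 136.5 and 128.5 CPM (log2 fold change 2.51 ± 0.31 SE; edgeR's quasi-likelihood test, adjusted p = 0.0171). The counts are totals per gene and check neither the deletion nor the labels, and every direction below rests on the labels. Fibroblast markers took 0.97% to 2.61% of counts labelled WT and 0.654% to 1.73% labelled mPGES-1 KO, and 0 of the 11 were at 0 in a library (1, Thy1, lower, 0 higher, median log2 fold change -1.02). Pericyte and smooth muscle markers took 0.363% to 1.004% and 0.0259% to 0.0511% (10 of 14 lower, 0 higher, median log2 fold change -4.04, 0 at 0 in any library). Luminal epithelial markers took 1.35% to 1.89% and 4.28% to 5.55% (6 of 15 higher, 0 lower, median 1.95, 0 at 0 in any library). Basal, endothelial and leukocyte markers took 0.198% of counts or less in every library, with Oxtr, Cdh5, Tie1 and Cd79a at 0 in some. Of these, 1 was called, lower: the basal marker Acta2, which is also counted in the pericyte and smooth muscle list. Of the 7 basal markers, 5 had a higher mean labelled mPGES-1 KO and 2 a lower one. These bulk libraries cannot tell fewer cells of a type from less RNA per cell. Throughout, values are given in the order of replicates 1, 2 and 3, and the libraries labelled mPGES-1 KO are called labelled KO.

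Most of the cyclic nucleotide genes did not pass the edgeR test: 4 of the 55 with enough counts did, and 51 did not. Pde4b, a cAMP-degrading enzyme, was higher in the libraries labelled KO, and 3 genes of the nitric oxide and cGMP branch, Gucy1a3, Gucy1b3 and Pde5a, were lower. An adjusted p under 0.05 with a higher level was reached by 198 of the 16543 genes tested, or 1.2%, and with a lower level by 258, or 1.56%. An unadjusted p under 0.05 was far more common, at 1416 of the 16543 genes with a higher level and 1741 with a lower one. Among the 55 members it was reached by 3 and 15. Counts at an unadjusted p below are to be read beside those all-gene counts. Mean CPM was higher in the libraries labelled KO for 17 of the 57 genes and lower for 40, and the median log2 fold change over the 55 was -0.77 against -0.04 over all genes tested. In 20 members each library labelled KO lay below each library labelled WT, where 15.7% of all tested genes were so placed. In 4 members (Pde4b, Prkaca, Pde9a and Pde7a) the groups were apart in the other direction, against 12.2% of all tested genes. How much of the difference in each gene goes with the shift in pericyte and luminal markers was not tested. Ratios to those markers are given for 5 genes as a description only. Call counts depended on single libraries. Without WT replicate 2, mPGES-1 KO replicate 2 or mPGES-1 KO replicate 3 there were 0 calls in either direction, with 16, 16 and 20 members at an unadjusted p under 0.05, and without WT replicate 1 there were 1 higher and 6 lower. Calls over all genes moved with them, to 1 or fewer in each of those 3 fits and to 1.84% higher and 1.35% lower without WT replicate 1.

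**Figure D1:**
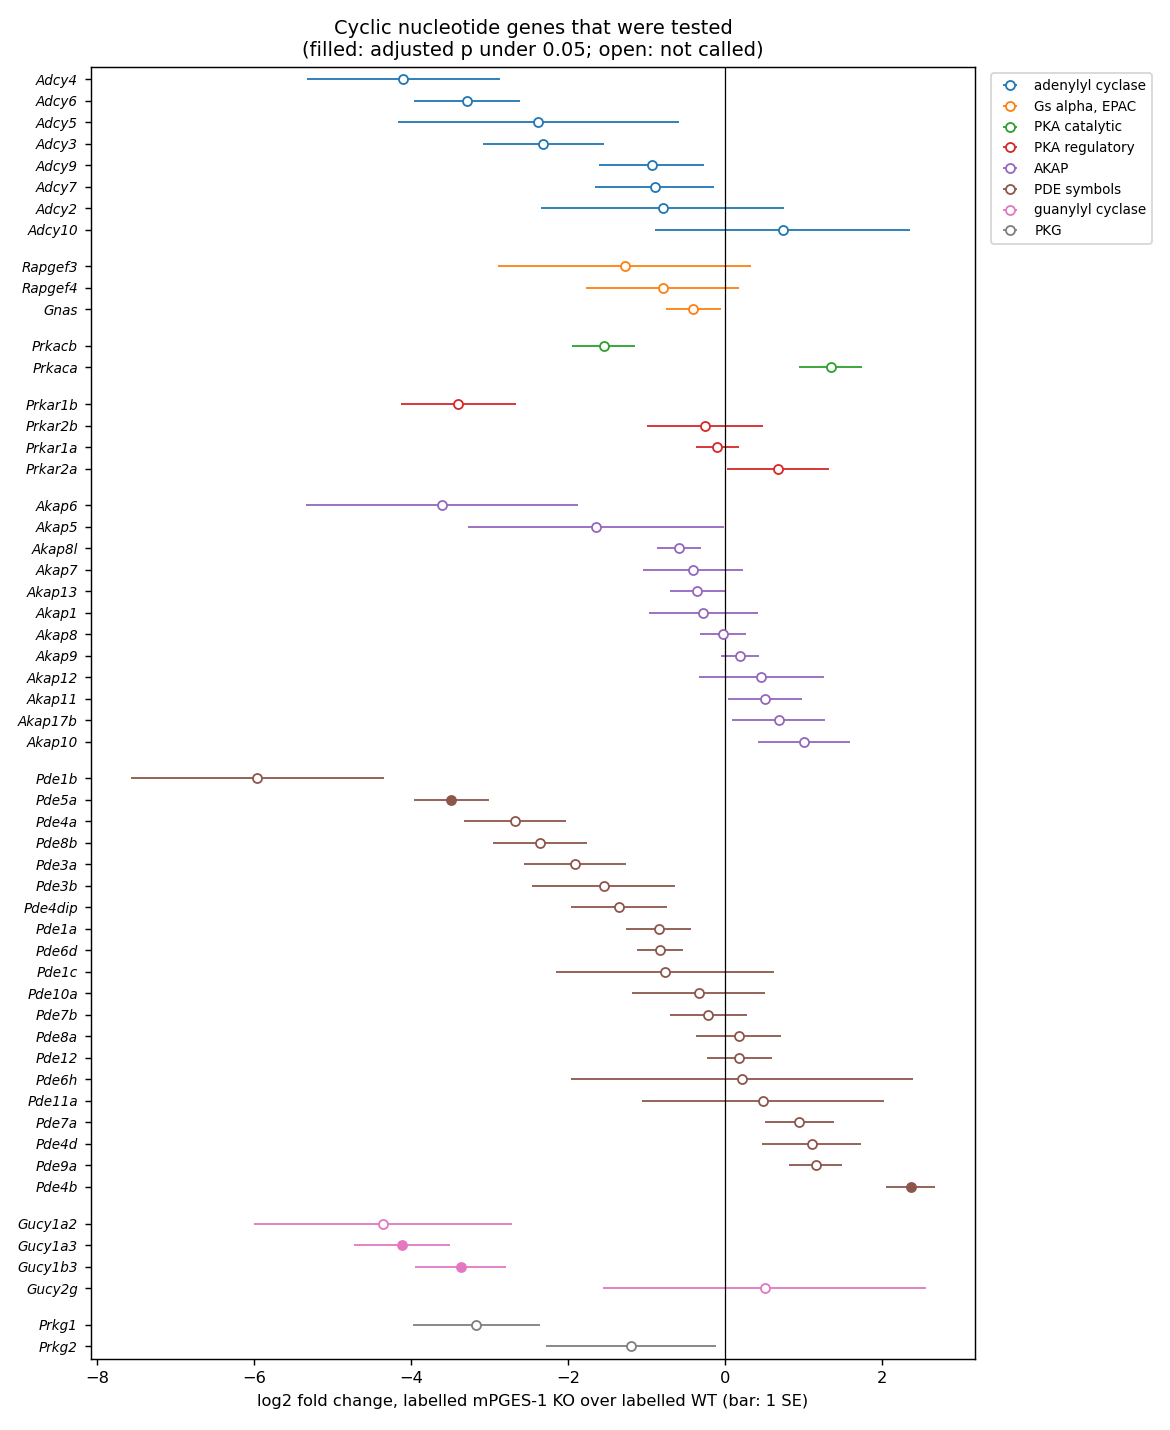
Log2 fold change of each of the 55 tested genes, labelled mPGES-1 KO over labelled WT (x axis, bars 1 SE), grouped by role, filled where the adjusted p was under 0.05. Pde4b at 2.36 is the filled point to the right of 0, and Pde5a (-3.49), Gucy1a3 (-4.12) and Gucy1b3 (-3.37) are the filled points to the left.

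At the receptor step, 23 of 32 listed Gs-coupled receptors and their partners were in the table. Of the 20 tested, 3 were lower in the libraries labelled KO and 0 were higher, and the median log2 fold change was -0.72. At an unadjusted p under 0.05 there were 6 lower and 0 higher, in DESeq2 6 and 0, and in limma-voom 3 and 0. These 2 tools call more genes of any kind than edgeR. DESeq2 called 6.71% of all genes it tested higher and 7.47% lower, and limma-voom 5.97% and 5.91%. Pth1r, the receptor for parathyroid hormone and its related peptide, was at 111, 203 and 166 CPM labelled WT and at 30.0, 8.68 and 22.7 CPM labelled KO. It fell by 2.96 ± 0.50 on the log2 scale (adjusted p = 0.0296), and the groups lay apart. Adgrf5, an adhesion receptor, was at 85.5, 77.8 and 23.2 CPM labelled WT and fell to 7.28, 8.13 and 3.85 CPM labelled KO (adjusted p = 0.0349). Its place among Gs-coupled receptors was taken from the list and was not tested here. Gper1, a receptor for oestrogen at the membrane, was at 39.9, 53.6 and 7.77 CPM labelled WT and had no count in any library labelled KO (adjusted p = 0.0233). That allows up to 3 counts, or about 0.13 CPM at most, in each. Each of these 3 receptor calls was lost when any library labelled KO was left out, and when WT replicate 2 was. Their adjusted p-values then ran from 0.0573 to 0.117 for Pth1r, 0.0916 to 0.14 for Adgrf5 and 0.0507 to 0.0949 for Gper1. In limma-voom, Adgrf5 (0.0659) and Gper1 (0.0727) were not called, while DESeq2 called all 3. In edgeR, Pth1r was also lost without WT replicate 3 (0.0738) and Adgrf5 without WT replicate 1 (0.0607). The PGE2 receptors that couple to Gs were low and uneven. Ptger2, which encodes EP2, was at 0, 2.34 and 5.46 CPM labelled WT and at 0, 4.69 and 9.86 CPM labelled KO (adjusted p = 0.882). Ptger4, which encodes EP4, was at 26.6, 4.75 and 4.89 CPM and at 15.9, 10.6 and 0.934 CPM (adjusted p = 0.893). Both receptors overlapped between the groups. Ramp1, the most abundant entry of the list, codes for a partner chain of the calcitonin-type receptors and had mean levels of 300.3 ± 127 and 161.5 ± 74.2 CPM (SD, n = 3 each), again with overlap (adjusted p = 0.309).

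Gnas, which encodes the Gs alpha chain, was at 38.6, 52.4 and 53.0 CPM labelled WT and at 37.8, 23.5 and 47.2 CPM labelled KO. The groups overlapped and the log2 fold change was -0.41 ± 0.35 (adjusted p = 0.604). In GENCODE, 22.0% of its exonic bases are shared with genes on the opposite strand, which counts made without strand cannot separate. Among 6 further alpha chains of the inhibitory and Gs-like classes 0 passed in edgeR (1 at an unadjusted p under 0.05, 0 in DESeq2, 1 in limma-voom), and the median was -0.89. Gnai2, the most abundant, was at 447.5, 640 and 468 CPM labelled WT and at 269, 294.5 and 322 CPM labelled KO. Its groups lay apart, with a log2 fold change of -0.81 and an adjusted p = 0.135. Gnai3, next in level, had means of 129 ± 82.7 and 177 ± 49.5 CPM, and its groups overlapped (adjusted p = 0.666).

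Of the 9 adenylyl cyclases, which make cAMP from ATP, 8 were tested and 0 passed in edgeR, with 3 at an unadjusted p under 0.05, 3 called by DESeq2 and 2 by limma-voom. Mean levels were lower in the libraries labelled KO for 8 and higher for 1 (Adcy10), and the median log2 fold change of the tested was -1.63. Adcy6 was at 15.4, 77.2 and 55.8 CPM labelled WT and at 6.95, 5.49 and 2.78 CPM labelled KO. The groups did not overlap, and the log2 fold change was -3.29 ± 0.68, with an adjusted p = 0.0504. Adcy3 was at 18.1, 40.0 and 20.3 CPM and at 11.01, 2.35 and 2.32 CPM (adjusted p = 0.153), and Adcy4 was at 1.16, 12.8 and 17.2 CPM and at 0.439, 0.335 and 1.02 CPM (adjusted p = 0.122). Adcy9 was at 7.47, 9.96 and 10.4 CPM and at 6.22, 4.28 and 3.96 CPM (adjusted p = 0.52). In these 3 cyclases too each library labelled KO lay below each library labelled WT. For Adcy3, 22.1% of exonic bases are shared with Cenpo on the other strand. Adcy7 had the highest mean level per kilobase of exonic length over the 6 libraries (4.24 CPM per kb against 4.02 for Adcy6), while labelled WT Adcy6 had the higher mean (7.29 against 5.52). Adcy7 was at 13.1, 29.8 and 68.7 CPM labelled WT and at 39.7, 11.1 and 8.98 CPM labelled KO, so its groups overlapped (adjusted p = 0.594). WT replicate 1 held the lowest Adcy3, Adcy4, Adcy6, Adcy7 and Adcy9 level among the libraries labelled WT, and without it Adcy6 (adjusted p = 0.0278) and Adcy4 (adjusted p = 0.048) passed. Adcy2, Adcy5 and Adcy10 had group means of 7.11 CPM or less and adjusted p-values from 0.545 to 0.871. Adcy1 was not tested, with 31, 25 and 0 counts labelled WT and 3, 1 and 4 labelled KO.

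The 2 catalytic subunits of PKA, which share one role but come from separate genes, lay on opposite sides of 0. Prkaca, coding for the alpha subunit, was at 15.5, 34.4 and 19.1 CPM labelled WT and at 44.6, 61.2 and 69.3 CPM labelled KO. Prkacb, coding for the beta subunit, was at 122.5, 153 and 53.3 CPM and at 36.2, 39.9 and 35.9 CPM. Neither pair of groups overlapped, and neither gene passed in edgeR (log2 fold changes 1.34 ± 0.40 and -1.55 ± 0.40, adjusted p = 0.119 and 0.0887). DESeq2 called both (adjusted p = 0.0211 and 0.0107) and limma-voom neither. In edgeR, Prkacb passed without WT replicate 3, the library with its lowest level labelled WT (adjusted p = 0.0449). Per kilobase of exonic length, Prkaca made up 30.8%, 44.2% and 55.8% of the catalytic subunit level labelled WT and 81.3%, 84.4% and 87.2% labelled KO. Its share was 40.7 percentage points higher in the means (43.6 ± 12.5% and 84.3 ± 2.96%, SD, n = 3 each; exact permutation test, two-sided, p = 0.1, the smallest that 3 against 3 libraries allow).

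Prkar1a, the type I alpha regulatory subunit, was the most abundant of the 57 genes per kilobase, at 166 ± 38.3 CPM per kb labelled WT and 155 ± 13.9 labelled KO. It was at 905, 654 and 592 CPM labelled WT and at 613.5, 665 and 733 CPM labelled KO, overlapping, with a log2 fold change of -0.10 ± 0.27 that changed sign in 2 of 13 alternatives (adjusted p = 0.899). Prkar1b was at 14.4, 76.2 and 21.2 CPM and at 4.79, 3.10 and 2.69 CPM, with the groups apart and the highest level in WT replicate 2. Its log2 fold change was -3.40 ± 0.73 with an adjusted p = 0.0569 in edgeR, and it passed without WT replicate 1 (adjusted p = 0.0406). DESeq2 called it lower (adjusted p = 7.22e-05) and limma-voom did not call it (0.102). The type II chains overlapped between groups. Prkar2a was at 4.35, 10.4 and 25.1 CPM and at 21.4, 18.5 and 23.5 CPM (adjusted p = 0.648). Prkar2b was at 75.8, 49.5 and 27.8 CPM and at 10.8, 91.1 and 26.5 CPM (adjusted p = 0.902), and its log2 fold change of -0.26 changed sign in 2 of 13 alternatives. Type I chains made up 91.7 ± 0.83% of the regulatory subunit level per kilobase labelled WT and 91.5 ± 5.92% labelled KO (exact permutation test, two-sided, p = 1).

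**Figure D2:**
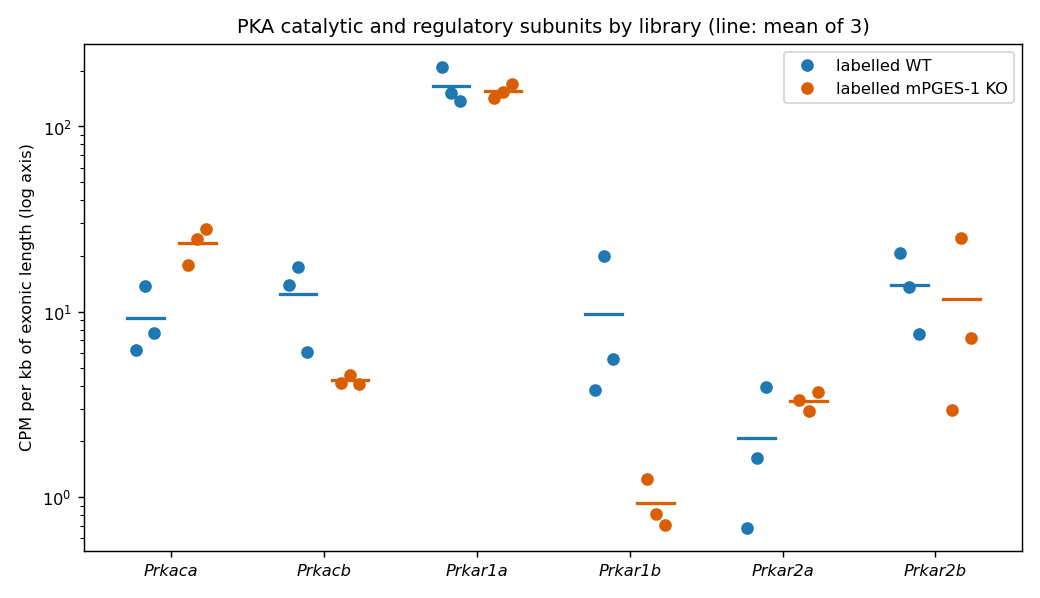
Level of the 6 PKA subunit genes in each library, in CPM per kilobase of exonic length on a log axis, with lines at the mean of 3. Prkaca is higher and Prkacb and Prkar1b are lower in each library labelled mPGES-1 KO than in each labelled WT, while Prkar1a, Prkar2a and Prkar2b overlap.

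AKAPs tether PKA to sites in the cell, and none of their transcripts was called. Of 12 tested, 0 passed in edgeR, DESeq2 or limma-voom, 0 had an unadjusted p under 0.05, 0 had groups that lay apart, 5 had a positive and 7 a negative log2 fold change, and the median was -0.15. Adjusted p-values ran from 0.316 to 0.972. Akap8l, the most abundant per kilobase, was at 86.3, 126.5 and 115 CPM labelled WT and at 61.7, 65.8 and 91.1 CPM labelled KO (log2 fold change -0.59 ± 0.28, adjusted p = 0.318). The exchange factors EPAC1 (Rapgef3) and EPAC2 (Rapgef4), which activate Rap proteins, were low in all libraries. Rapgef3 was at 0.0911, 7.80 and 6.62 CPM and at 0.512, 4.86 and 0.595 CPM (adjusted p = 0.741). Rapgef4 was at 4.35, 20.7 and 10.02 CPM and at 14.0, 4.74 and 1.42 CPM (adjusted p = 0.729). Both overlapped between groups. Of the 10 tested cAMP transporters, channels and other effectors, including the Rap proteins, 0 passed in edgeR, with a median of 0. In that list 2 had an unadjusted p under 0.05, DESeq2 called 1 and limma-voom 2. Rap1b and Rap1a, the most abundant of them, had log2 fold changes of 0.75 (adjusted p = 0.241) and -0.28 (adjusted p = 0.611).

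Peptides that block the PKA catalytic subunit are encoded by 3 genes, 0 of which passed in edgeR (2 at an unadjusted p under 0.05, 1 in DESeq2, 0 in limma-voom), with a median of -1.24. Pkig was at 363, 395 and 198 CPM labelled WT and at 72.3, 149 and 183 CPM labelled KO, and Pkia at 26.9, 13.3 and 14.4 CPM and at 4.02, 5.49 and 7.14 CPM. In both the groups lay apart without passing (adjusted p = 0.156 for each). Downstream, 0 of the 8 tested CREB family members and coactivators passed in edgeR (1 at an unadjusted p under 0.05, 0 in DESeq2 and limma-voom), and their median was 0.26. Crem, a CREB relative that includes repressor forms, was at 38.3, 22.4 and 70.4 CPM labelled WT and at 59.8, 110 and 94.9 CPM labelled KO (log2 fold change 1.02 ± 0.46, adjusted p = 0.284). The coactivator Crebbp had means of 67.4 ± 9.77 and 78.7 ± 24.0 CPM, with overlap (adjusted p = 0.77).

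Among the PDEs, transcripts shifted towards one gene. Pde4b, which codes for a cAMP-specific enzyme (chromosome 4, 102087543 to 102607259 in GRCm38), was at 119, 83.9 and 149 CPM labelled WT and at 713, 598 and 498.5 CPM labelled KO. Each library labelled KO was more than 3 times the highest library labelled WT. It rose by 2.36 ± 0.31 on the log2 scale, from a mean of 117 ± 32.5 to 603 ± 107 CPM (SD, n = 3 each; edgeR adjusted p = 0.0177). The call was lost without WT replicate 2 (0.0824), mPGES-1 KO replicate 2 (0.0921) or mPGES-1 KO replicate 3 (0.0664). Over the 13 alternatives it was called in 9, its adjusted p ran from 2.74e-10 to 0.0921, and its log2 fold change from 2.23 to 2.56. Luminal epithelial markers were also higher in the libraries labelled KO, and 7 of 8 leukocyte markers had a higher mean there (median log2 fold change 1.62, 0 called). Per 100 CPM of the luminal markers summed, a ratio chosen after the values were seen, Pde4b was at 0.674, 0.659 and 0.761 CPM labelled WT and at 1.26, 1.4 and 1.1 CPM labelled KO, with the groups apart. That sum is carried by Csn3 (25.9% to 57.0% of it) and Wfdc18 (8.62% to 53.6%), neither of them called. Against each of the 6 called luminal markers by itself, the Pde4b groups overlapped for 5 and lay apart with labelled KO lower for Epcam. Per 100 CPM of Krt8, for example, Pde4b was at 27.3, 18.6 and 25.2 CPM labelled WT and at 20.5, 23.8 and 22.0 CPM labelled KO. The 6 markers were picked because they were higher labelled KO in these same libraries, which by itself pulls the labelled KO ratios down. The 9 luminal markers that were not called were not used singly. These ratios therefore cannot show whether Pde4b follows luminal markers. The part of luminal or leukocyte cells in the Pde4b level was not tested.

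Neither of the other PDE4 genes in the table was called in edgeR. Pde4a was at 10.02, 37.8 and 26.0 CPM labelled WT and at 5.38, 2.77 and 3.37 CPM labelled KO, with the groups apart in the opposite direction to Pde4b (log2 fold change -2.68 ± 0.65, adjusted p = 0.0757, and 0.0408 without WT replicate 1). Pde4d was at 42.1, 12.4 and 23.2 CPM and at 101.5, 39.4 and 25.4 CPM, overlapping, with a mean in the same direction as Pde4b (log2 fold change 1.10 ± 0.63, positive in all 13 alternatives, adjusted p = 0.41). DESeq2 and limma-voom called Pde4a (adjusted p = 0.00119 and 0.0461) and not Pde4d. Per kilobase, Pde4b made up 70.1%, 57.1% and 72.5% of the level of these 3 genes labelled WT and 88.0%, 93.9% and 94.9% labelled KO. That is a difference of 25.7 percentage points between means of 66.6 ± 8.31% and 92.3 ± 3.70% (SD, n = 3 each; exact permutation test, two-sided, p = 0.1, the smallest possible here).

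Pde5a, the cGMP-specific enzyme that sildenafil inhibits (chromosome 3, 122728947 to 122859374), was at 84.0, 94.6 and 46.9 CPM labelled WT and at 10.2, 4.86 and 4.98 CPM labelled KO. It fell by 3.49 ± 0.48 on the log2 scale (adjusted p = 0.0182), and the highest library labelled KO lay well below the lowest labelled WT. Its call, too, was lost without WT replicate 2 (0.094), mPGES-1 KO replicate 2 (0.102) or mPGES-1 KO replicate 3 (0.0753). Pde9a, the other cGMP-specific enzyme, pointed the other way, at 26.7, 39.4 and 36.5 CPM labelled WT and 67.9, 103 and 56.9 CPM labelled KO. Its groups lay apart and it was not called in edgeR, with a log2 fold change of 1.15 ± 0.34 (adjusted p = 0.115). DESeq2 (adjusted p = 0.0227) and limma-voom (0.0481) called it higher.

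Of the 8 enzymes that accept both nucleotides, 7 had a lower mean CPM labelled KO, and 0 of the 7 tested passed in edgeR. Pde1b, which calmodulin activates, was at 15.4, 32.5 and 7.08 CPM labelled WT and at 0, 0.838 and 0.0566 CPM labelled KO. The counts behind the latter were 0, 20 and 2, so the fitted log2 fold change of -5.96 ± 1.61 rests on few reads (adjusted p = 0.0966). Pde3a, an enzyme that cGMP inhibits, held 44.5, 47.3 and 45.4 CPM labelled WT and 24.4, 7.92 and 3.85 CPM labelled KO (log2 fold change -1.92 ± 0.65, adjusted p = 0.159). Pde1a was at 20.4, 40.4 and 25.2 CPM and at 17.1, 15.9 and 14.9 CPM (adjusted p = 0.318). In all 3 of these genes the groups did not overlap. DESeq2 called Pde1b (adjusted p = 4.47e-05) and Pde3a (0.038), and limma-voom called Pde3a (0.0269).

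Of the remaining cAMP-specific enzymes, Pde8b was at 21.8, 24.5 and 17.7 CPM labelled WT and at 2.38, 3.27 and 6.83 CPM labelled KO (log2 fold change -2.36 ± 0.60, adjusted p = 0.0849). Not called in edgeR, it was called lower by DESeq2 (adjusted p = 0.00182) and limma-voom (0.0331). Pde7a was at 9.95, 14.5 and 13.9 CPM and at 26.9, 16.0 and 30.8 CPM (adjusted p = 0.306). The groups lay apart for both, downward for Pde8b and upward for Pde7a. Some symbols that begin with Pde do not stand for cyclic nucleotide hydrolases. Pde6d, a chaperone for prenylated proteins, was even across the libraries labelled WT at 69.1, 72.0 and 69.8 CPM and lower labelled KO at 34.6, 33.9 and 49.9 CPM (log2 fold change -0.83 ± 0.29, adjusted p = 0.162). Pde4dip, myomegalin, a scaffold at the Golgi and centrosome, was at 14.5, 18.2 and 30.0 CPM and at 11.9, 3.40 and 9.32 CPM (adjusted p = 0.288). Of the other tested Pde symbols, Pde3b lay apart and lower (adjusted p = 0.426), while Pde1c, Pde6h, Pde7b, Pde8a, Pde10a, Pde11a and Pde12 overlapped. Pde6h had 225 counts in mPGES-1 KO replicate 3 and 0 in the other two libraries labelled KO. Pde2a was not tested, with 0, 84 and 15 counts labelled WT and 0 in each library labelled KO, and 64.3% of its exonic bases are shared with another gene on its strand.

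As a description of the pool of PDE transcripts, the levels per kilobase of 17 genes that encode hydrolases of cAMP or cGMP were summed within each library. The sum was 58.2 ± 5.95 CPM per kb labelled WT and 98.9 ± 18.5 labelled KO. Pde4b accounted for 21.5%, 12.3% and 24.5% of it labelled WT and for 58.0%, 56.1% and 59.4% labelled KO. Pde5a accounted for 13.2 ± 4.26% and 0.675 ± 0.205%. The cAMP-specific enzymes together made up 47.0 ± 6.92% and 72.3 ± 5.31%, and those that accept both nucleotides 23.4 ± 4.46% and 5.20 ± 0.924%. For both classes the groups did not overlap. The cGMP-specific share, 29.7 ± 3.12% and 22.5 ± 6.11%, overlapped between groups, with Pde5a lower and Pde9a higher in mean share labelled KO. Since shares of one sum depend on each other, the rise in Pde4b alone lowers the share of every other gene.

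**Figure D3:**
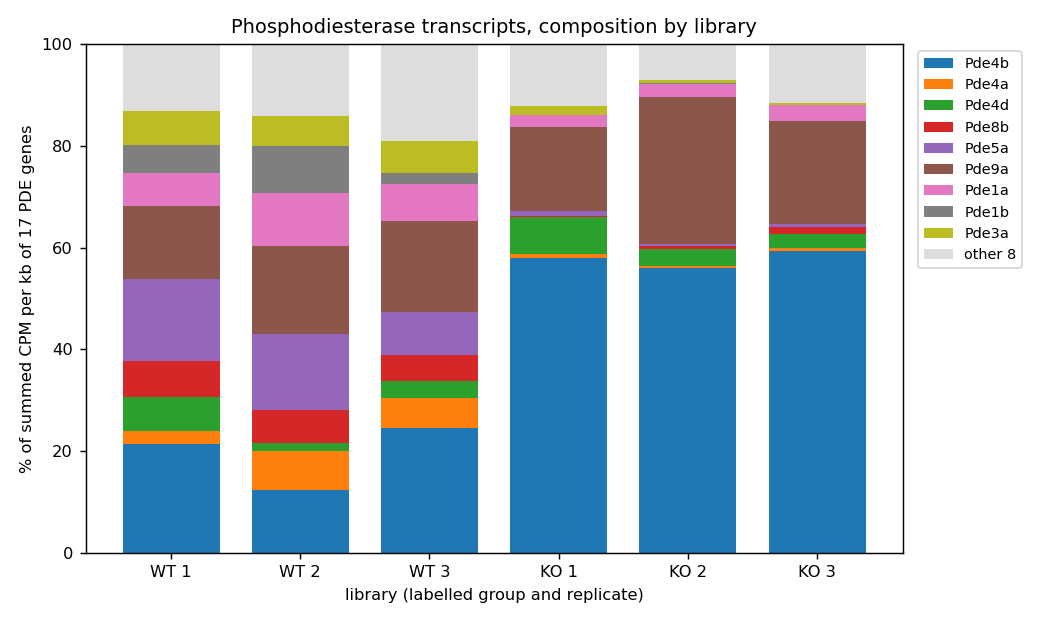
Share of each PDE gene in the summed level (CPM per kilobase) of 17 PDE genes in each library (y axis, percent), with 8 further genes pooled in grey. Pde4b takes 12.3% to 24.5% in the libraries labelled WT and 56.1% to 59.4% in those labelled mPGES-1 KO.

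Of the 3 soluble guanylyl cyclase genes, 2 passed the test, both lower in the libraries labelled KO. Gucy1a3 (Gucy1a1 in current annotation, chromosome 3, 82092427 to 82145789), the main alpha chain, was at 87.5, 127 and 82.6 CPM labelled WT and at 2.45, 3.86 and 10.8 CPM labelled KO. It fell by 4.12 ± 0.61 on the log2 scale (adjusted p = 0.0236). Gucy1b3 (Gucy1b1, chromosome 3, 82032006 to 82074689), the beta chain that carries the haem, was at 93.3, 98.2 and 54.9 CPM labelled WT and at 13.9, 3.35 and 6.60 CPM labelled KO. It fell by 3.37 ± 0.58 (adjusted p = 0.0309). For both chains of the enzyme, every library labelled WT was several times above every library labelled KO. Gucy1a2, another alpha chain, was at 3.94, 14.0 and 7.52 CPM and at 0.0366, 1.17 and 0.0283 CPM, the latter from 1, 28 and 1 counts, apart between groups but not called in edgeR (adjusted p = 0.199). DESeq2 called it lower (adjusted p = 0.0139) and limma-voom did not call it (0.0569). Gucy2g, a membrane-bound form, was near 0 to 2.64 CPM throughout and overlapped (adjusted p = 0.931). The Gucy1a3 call was lost without WT replicate 2 (0.094), mPGES-1 KO replicate 2 (0.111) or mPGES-1 KO replicate 3 (0.063, with a log2 fold change of -4.97). The Gucy1b3 call was lost without any single library other than mPGES-1 KO replicate 1, with adjusted p-values from 0.0506 to 0.12. Without mPGES-1 KO replicate 1 its log2 fold change was -4.03.

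Of the kinases that cGMP activates, Prkg1 was at 18.6, 20.4 and 9.42 CPM labelled WT and at 2.05, 2.72 and 0.623 CPM labelled KO (log2 fold change -3.17 ± 0.81, adjusted p = 0.0858). Prkg2 was at 10.52, 6.97 and 8.37 CPM and at 4.46, 6.54 and 0.283 CPM (log2 fold change -1.20 ± 1.08, adjusted p = 0.621). The groups lay apart for both and neither passed in edgeR, while DESeq2 called Prkg1 (adjusted p = 0.000693) and limma-voom neither. Among 8 tested PKG substrates and partners, 2 were lower, 0 were higher and the median was -3.24. At an unadjusted p under 0.05 there were 5 lower and 0 higher. DESeq2 called 5 lower and limma-voom 3. Mrvi1, the PKG partner that restrains calcium release, was at 13.0, 27.2 and 13.6 CPM labelled WT and fell to 0, 0.0419 and 0.198 CPM labelled KO (adjusted p = 0.0296). The labelled KO levels lie near that of 3 counts, so the size of its log2 fold change (-7.67 ± 1.28) rests on few reads there. Ppp1r14a, an inhibitor of myosin phosphatase, was at 104, 252 and 70.3 CPM and fell to 8.56, 1.68 and 4.45 CPM (adjusted p = 0.0273). Vasp, an actin regulator that PKG phosphorylates, was at 146, 190.5 and 105 CPM and at 59.8, 45.6 and 27.7 CPM, apart but not called (adjusted p = 0.0573). The phosphatase subunit Ppp1r12a overlapped (adjusted p = 0.472). Both calls were lost without WT replicate 2, mPGES-1 KO replicate 2 or mPGES-1 KO replicate 3 (adjusted p from 0.0661 to 0.146 for Mrvi1 and 0.0919 to 0.102 for Ppp1r14a). Mrvi1 was also lost without WT replicate 3 (0.0707) or mPGES-1 KO replicate 1 (0.0505). Of the natriuretic peptide and nitric oxide genes upstream, 6 of 9 were in the table, and of the 4 tested 0 passed in edgeR, DESeq2 or limma-voom, or had an unadjusted p under 0.05. Npr1 and Npr2, membrane guanylyl cyclases that bind natriuretic peptides, overlapped between groups (adjusted p = 0.597 and 0.87).

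Pericyte and smooth muscle markers were also lower in the libraries labelled KO (10 of 14 called). Per 100 CPM of the 14 pericyte markers summed, a ratio also chosen after the values were seen, Gucy1a3 was at 1.24, 1.35 and 2.2 CPM labelled WT and at 0.471, 1.54 and 2.3 CPM labelled KO. Gucy1b3 was at 1.32, 1.04 and 1.46 and at 2.68, 1.34 and 1.41. On the same scale Pde5a was at 1.19, 1 and 1.25 and at 1.97, 1.95 and 1.06, and Prkg1 at 0.263, 0.216 and 0.25 and at 0.394, 1.09 and 0.133. The groups overlapped for all 4 genes on this scale, while on the CPM scale they lay apart. Against each of the 10 called pericyte markers by itself, the groups overlapped for 6 (Gucy1a3), 6 (Gucy1b3), 7 (Pde5a) and 8 (Prkg1) markers, and for the others labelled KO was the higher. Those 10 were picked because they were lower labelled KO in these same libraries, which by itself raises the labelled KO ratios. The 4 markers that were not called were not used singly. These ratios therefore cannot show whether the cGMP genes follow pericyte markers, and that was not tested.

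**Figure D4:**
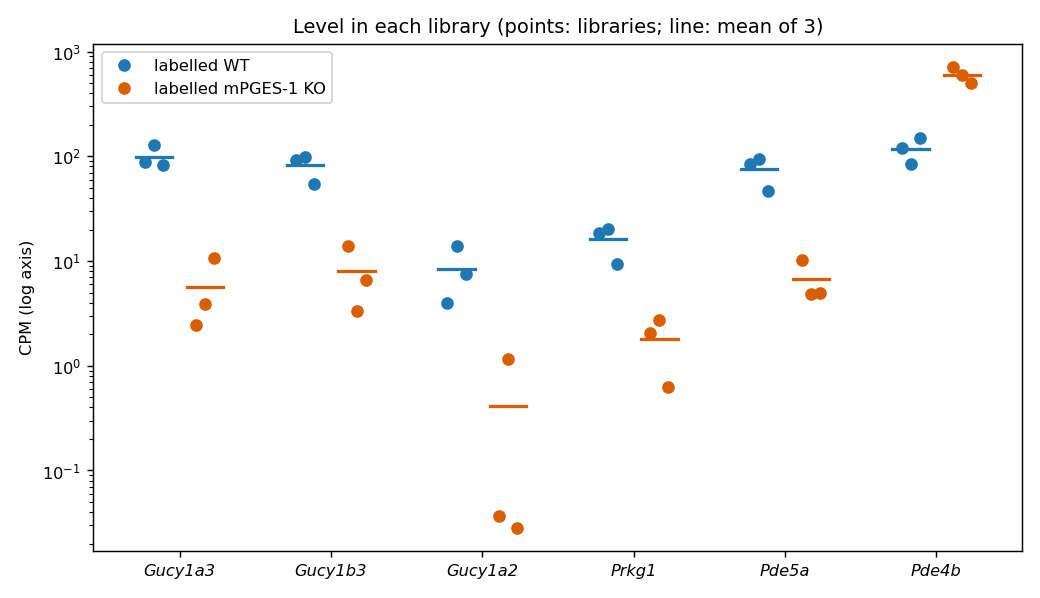
CPM of the soluble guanylyl cyclase genes, Prkg1, Pde5a and Pde4b in each library (log axis), with lines at the mean of 3. For the 5 cGMP genes each library labelled mPGES-1 KO lies below each labelled WT, and for Pde4b each lies above.

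Ordered by mean level per kilobase over the 6 libraries, Prkar1a stood first at 160.6 CPM per kb, followed by Pde4b (34.1), Pde6d (25.2), Akap8l (18.0), Prkaca (16.4) and Pde9a (15.6). The neighbours from Akap8l to Pde9a did not differ beyond their spread between libraries. Within the libraries labelled WT, Gucy1b3 was at 20.9 ± 6.04 and Gucy1a3 at 14.2 ± 3.52 CPM per kb, against 11.1 ± 3.08 for Pde4b. That order of means did not hold in each library. In WT replicate 3, Pde4b (14.08) lay above Gucy1b3 (13.97) and Gucy1a3 (11.85). In each library labelled KO, Pde4b lay above both cyclase chains. Its mean there was 57.1 ± 10.2, against 2.03 ± 1.38 for Gucy1b3 and 0.818 ± 0.641 CPM per kb for Gucy1a3.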

How the data were processed

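Sorted cells were processed with SMART-Seq v4 (16 PCR cycles, no molecular identifiers) and sequenced in single reads of 75 cycles, per the labels' protocols. Read checks with FastQC 0.11.5, STAR and the mm10 build are named in the submitters' processing notes. No counting tool is given in the sources used here. The authors deposited raw counts per gene symbol. From these, all 18197 symbols were filtered (filterByExpr) and fitted with edgeR 4.0.16 (TMM, robust quasi-likelihood, R 4.3.3). CPM were computed with the TMM-scaled library totals. P-values were adjusted by Benjamini-Hochberg over 16543 genes, and a call is an adjusted p under 0.05, two-sided. Fold changes are labelled mPGES-1 KO over labelled WT. Kilobases are exonic unions in GENCODE M21. Alternatives used DESeq2 1.42.0, limma 3.58.1 (voom), other scalings and filters, a replicate block, and each library left out. Tests were checked on simulated data. The members, gene lists and markers were chosen with earlier results of these data known. Named members were those called, those with a mean of at least 5 CPM whose groups do not overlap, the most abundant of each family per kilobase, and the PDE4, PKA, PKG, Gucy1, Gnas and EPAC genes. Of each pathway list, called genes and the 2 most abundant were named by rule; Ptger2, Ptger4, Pkia, Crem, Vasp and members outside the rule were named after their values were seen. Shared exonic bases were found for 18 members, over 5% in 10 of them.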

Additional observations from a re-analysis of the deposited data

How the results depend on the processing

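Over 13 alternatives the 4 called members kept their direction. Members called higher and lower numbered 1 and 3 with DESeq2 size factors, library size scaling or no filter, 1 and 5 with a filter of 1 CPM in 3 libraries, 3 and 14 with DESeq2, 2 and 8 with limma-voom, and 1 and 10 at an adjusted p under 0.1. All-gene calls were 198 higher and 258 lower in the main fit, 1057 and 1178 with DESeq2, 988 and 977 with limma-voom, 280 and 305 with the 1 CPM filter and 480 and 633 at the looser threshold. DESeq2 tested 15762 genes and 52 of the members, and limma-voom 16543 and 55. DESeq2 additionally called Pde9a and Prkaca higher and, among others, Prkg1, Pde1b and Adcy3 lower. Leaving out 1 library gave 0 to 1 higher and 0 to 6 lower members, and 0 to 327 and 0 to 241 of all genes. Replicate numbers did not pair the libraries (same-number correlations -0.0634, 0.0278 and -0.0166), and with the replicate block 0 members were called higher and 0 lower, 0 of all genes passed, and 18 members had an unadjusted p under 0.05, as without it. The log2 fold change of Prkar1a turned to 0.03 with limma-voom and 0.13 without WT replicate 1, and that of Prkar2b to 0.17 without WT replicate 1 and 0.20 without mPGES-1 KO replicate 1; leaving out 1 library gave -0.22 to 0.13 and -1.43 to 0.20. The type I share difference ran from -2.38 to 3.14 percentage points when 1 library was left out. The cause of these changes was not tested. The median log2 fold change of all genes ran from -0.119 (limma-voom) to 0.022. With 3 libraries a group and a common biological coefficient of variation of 0.818, the smallest called absolute log2 fold change of any gene was 1.13. Levels near 3 counts (0.0687 to 0.13 CPM) limit Pde1b, Gucy1a2 and Rapgef3, and the called pathway genes Gper1 and Mrvi1. Counting error only is covered by such floors.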
